A study of Mus musculus with 32 samples.

Results

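The comparison described here set mature eggs against immature oocytes of a single inbred mouse strain, B6. Oocytes at the germinal vesicle stage (GV) are held in meiotic prophase with an intact nucleus, and oocytes at metaphase II (MII) have completed the first meiotic division and wait for fertilization. Libraries were chosen by strain and stage in their names, which gave 6 of B6 MII and 5 of B6 GV, 11 of the 32 libraries of the study. The remaining 21 came from D2 and B6xD2 F1 females at the same stages and were fitted together with the B6 libraries. They thus also shaped the scaling, the choice of genes tested, the batch term and the estimate of spread between libraries. At the end they also served a comparison of strains. Each library was made from 9 to 20 oocytes pooled from 1 female aged 8 to 12 weeks, so that a replicate is a mother and a p-value measures the spread between mothers. The B6 GV libraries were 3 of batch 1 and 2 of batch 2, and the B6 MII libraries were 3 of each batch. The batches were sequenced on different instruments. All oocytes were collected in M2 medium and stripped of the zona pellucida with acid Tyrode's solution. The phosphodiesterase inhibitor IBMX, which holds oocytes at GV, was in the medium of the GV oocytes, so the stage and the drug cannot be told apart. The sources used here do not say how the MII oocytes reached that stage.

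As background, a full-grown mouse oocyte makes little new RNA, and maturation to MII runs on stored maternal transcripts, many of which are degraded on the way. Stored transcripts are kept with short poly(A) tails. A U-rich element close to the 3′ end, the cytoplasmic polyadenylation element (CPE), binds CPEB1 and directs lengthening of the tail and translation when meiosis resumes. The nuclear poly(A) signal, AATAAA or a variant of it, lies nearby and is needed for the same step.

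The 3′ ends of some transcripts described below are shown here, since the genes that rose and those that fell differed in how often they held a CPE (values at the end). They were picked from higher genes with a CPE and lower genes without one, so the contrast between them was set by that choice. Most higher genes held no CPE, and some lower genes held one. Each printed end is 30 bases of the annotated transcript strand on GRCm38, 5′ to 3′, with T for U. The element is in capitals, and where a poly(A) signal (AATAAA or ATTAAA) lies in the same 30 bases, the one nearest the end is in capitals too. For 8 genes whose transcripts were higher in MII, the capitals mark a CPE (TTTTAT or TTTTAAT) in the last 100 bases:
Omt2a, chr9:78312011-78312040, minus strand: ttaacggTTTTATaataAATAAAagtttca
Omt2b, chr9:78329555-78329584, plus strand: gggttttaacggTTTTATaataAATAAAag
Tcl1, chr12:105216797-105216826, minus strand: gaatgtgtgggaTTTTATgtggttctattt
Fubp3, chr2:31617437-31617466, plus strand: taaagatgttctTTTTATttgactgacaat
Bcl2l10, chr9:75351590-75351619, plus strand: tTTTTAATaacttcaaattcttAATAAAtg
Dcp1a, chr14:30527011-30527040, plus strand: aaatatatttTTTTAATAAAatttcaaaac
Btg4, chr9:51119797-51119826, plus strand: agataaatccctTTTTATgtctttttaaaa
Nup62, chr7:44830710-44830739, plus strand: cagtcatgtctaTTTTATttctctgcactc
In Dcp1a the element and the poly(A) signal overlap. For 5 genes whose transcripts were lower in MII, and whose last 100 bases held neither form of the CPE, the capitals mark the poly(A) signal:
Zp2, chr7:120126772-120126801, minus strand: tctttaaactctAATAAAattatcctctgg
Khdc3, chr9:73104409-73104438, plus strand: ttaaagtattctAATAAAaaaaaaattgca
Rps13, chr7:116331512-116331541, minus strand: gtgtgcacaagcAATAAAatcactttgagt
Atp5e, chr2:174461081-174461110, minus strand: attgactatgccAATAAAttaacatggttc
Ccnd2, chr6:127125167-127125196, minus strand: tgctatttggacAATAAActcaccttgacc

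Levels are counts per 1000000 counts of the library (CPM), scaled between libraries by TMM (trimmed mean of M values) and not divided by gene length, and they give a transcript's share of the library and not the amount per oocyte. Total counts in the B6 libraries ran from 23270696 to 35850302 with a median of 28669850. A level with ± is a mean with its SD over 5 GV or 6 MII libraries. Fitted changes are log2 MII minus GV with their standard error (SE), and a gene was called when its adjusted p, from the quasi-likelihood test of edgeR, adjusted by Benjamini-Hochberg over 19003 genes, was under 0.05.

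The libraries were first checked against markers of the oocyte and of the follicle cells that surround it. The 15 oocyte markers were read in all 11 libraries (2 were called higher in MII and 7 lower, or 4 without replicate 5 of GV in batch 1), with summed levels of 11400 to 14200 CPM in GV and 9670 to 12800 in MII. The 32 listed markers of granulosa and cumulus cells, 29 of them tested, summed to 862 to 1540 CPM in the 3 GV libraries of batch 1. In batch 2 the GV libraries lay far apart, at 421 CPM in replicate 1 and 4550 in replicate 2, the granulosa-rich GV library. The 6 MII libraries lay between 366 and 491 CPM. Of the 29 tested markers 18 were lower in MII and 2 were higher. The sums include Serpine2, which rose in MII (values at the end), so they are not a level of granulosa RNA alone. Foxl2 and Amh, defining granulosa transcripts, averaged 2.68 and 0.642 CPM in GV and had no count in any MII library, where 3 counts over the stage would be 0.0172 CPM. Theca and stroma markers moved with them, with 11 of 12 lower and summed levels of 9.5 to 86.6 CPM in GV and 4.36 to 11.7 in MII. None of 9 blood and immune markers and 2 of 8 endothelial markers were called. Follicle-cell transcripts therefore differed with stage, and replicate 1 of batch 2, called the low-granulosa GV library here, was within the MII range for their sum. In a bulk pool, fewer cells of a type and less RNA per cell cannot be told apart. For each list of oocyte functions, the number of called members is also given with the mean level of the granulosa markers as a covariate in the fit, and levels in the low-granulosa GV library are given for the leading genes. The mean log2 level was 0.45 in that library, 2.82 to 4.14 in the other B6 GV libraries and -0.42 to 0.94 in MII. The covariate thus ran largely with stage, so a call lost with it does not tell follicle-cell transcripts from stage.

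Across the 19003 genes tested, 5065 (26.7%) were called, 1957 (10.3%) higher in MII and 3108 (16.4%) lower. The rises were small, with a median of 0.52 on the log2 scale among called genes, and 163 genes (0.858%) rose at least 2-fold. Without replicate 2 of GV in batch 2 that number was 98. The falls were larger, with a median of -2.47, and 2531 genes (13.3%) fell at least 2-fold. Among the 9714 genes with a mean of at least 5 CPM the split was 1892 higher and 1301 lower. The counts for gene lists below are to be read beside this split and the shares over all genes. Every MII library lay above every GV library for 410 of the genes called higher, against 458 (2.41%) over all genes tested, and below every GV library for 814 of those called lower, against 856 (4.5%). No MII count at all was found for 238 of the lower genes. In the low-granulosa GV library, 1315 of the 3108 lower genes were above all 6 MII libraries (19.0% of all genes tested were), and 1106 of the 1957 higher genes were below all 6 (20.3% of all genes tested were). With the granulosa covariate 560 genes (2.95%) were higher and 1081 (5.69%) lower, and 475 and 996 of them were the same calls. Batch 1 alone gave 1358 higher (7.15%) and 2554 lower (13.4%), and batch 2 alone gave 663 (3.49%) and 739 (3.89%). The median change over all tested genes was -0.06. The 11 B6 libraries fitted alone gave 3513 calls over 15798 genes, 1491 higher and 2022 lower.

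**Figure D1:**
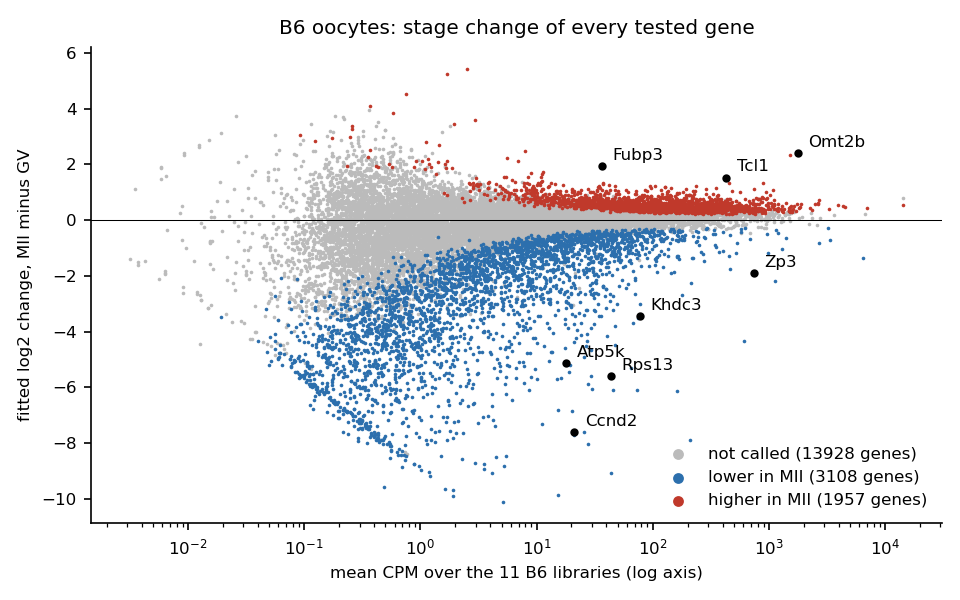
Fitted log2 change, MII minus GV (vertical axis), against the mean level over the 11 B6 libraries in CPM (horizontal log axis) for each tested gene with a B6 count. Red points are the 1957 genes called higher, blue points the 3108 called lower and grey points were not called. The rises are mostly under 1 on the log2 scale while the falls reach below -8, and 8 genes of the text are named.

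The largest rises among genes of at least 5 CPM were in Omt2b and Omt2a, a pair of oocyte-specific genes on chromosome 9 that are near copies, so their reads may be divided between them. Omt2b stood at 1058, 678.2 and 881.9 CPM in the GV libraries of batch 1 and at 269.6 and 205 in those of batch 2. In MII it stood at 3644, 2664 and 3115 in batch 1 and at 2700, 2268 and 2166 in batch 2. All 6 MII libraries lay above all 5 GV libraries. The fitted rise was 2.42 ± 0.27 on the log2 scale (SE, adjusted p = 1.2e-07), and that of Omt2a was 2.33 ± 0.25.

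Tcl1, which encodes a co-activator of the kinase AKT, was at 388, 366 and 278 CPM in GV of batch 1 and at 94.8 and 86.1 in batch 2. The MII values were 921, 759 and 717 in batch 1 and 396, 415 and 322 in batch 2. The stages were apart within each batch, and across batches the lowest MII library fell between GV libraries of batch 1. The rise was 1.52 ± 0.16 (adjusted p = 8.15e-09). Fubp3, an RNA- and DNA-binding protein of the KH-domain class, went from 9.5 to 20 CPM over the GV libraries to 39.6 to 70.8 over the MII libraries, a rise of 1.95 ± 0.22. Efna1, an ephrin ligand, rose by 1.55 ± 0.31, Nip7, a ribosome biogenesis factor, by 1.53 ± 0.23, and Pim1, a serine/threonine kinase, by 1.39 ± 0.34, each with all MII libraries above all GV libraries. Nfatc1, a calcium-regulated transcription factor, rose by 2.23 ± 0.49 from 0.666 to 2.74 CPM to 1.33 to 13.1 CPM, and its lowest MII library, replicate 3 of batch 1, lay inside the GV range. Cxcr4, a chemokine receptor, was called (1.54 ± 0.50, adjusted p = 0.0203) although 5 of its 6 MII libraries, at 2.23 to 3.94 CPM, lay inside the GV range of 0.74 to 4.76, and the same replicate 3 stood at 29.8 CPM. Without it the change was 0.53 with an adjusted p of 0.402, and without the granulosa-rich GV library the adjusted p was 0.0672.

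Transcripts with the highest CPM among those that rose changed by less than 2-fold. Zbed3, a member of the subcortical maternal complex, was at 8168 to 8680 CPM in the 3 GV libraries of batch 1 and at 11620 to 17450 in MII of that batch. In batch 2 its GV values of 16870 and 15070 overlapped the MII values of 16040 to 22100. The change was 0.55 ± 0.13 (adjusted p = 0.0015). Spin1, a histone-mark reader, rose by 0.42 ± 0.10, and its low-granulosa GV library, at 8561 CPM, lay inside the MII range of 7154 to 8695. Mdm4, an inhibitor of p53, rose by 0.46 ± 0.11, and its low-granulosa GV library again overlapped MII. Tet3, the maternal enzyme that oxidizes 5-methylcytosine, rose by 0.50 ± 0.10, from 3381 ± 820 CPM in GV to 5149 ± 1589 in MII. None of Zbed3, Spin1 and Mdm4 passed the test with the granulosa covariate, while Tet3 did.

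**Figure D2:**
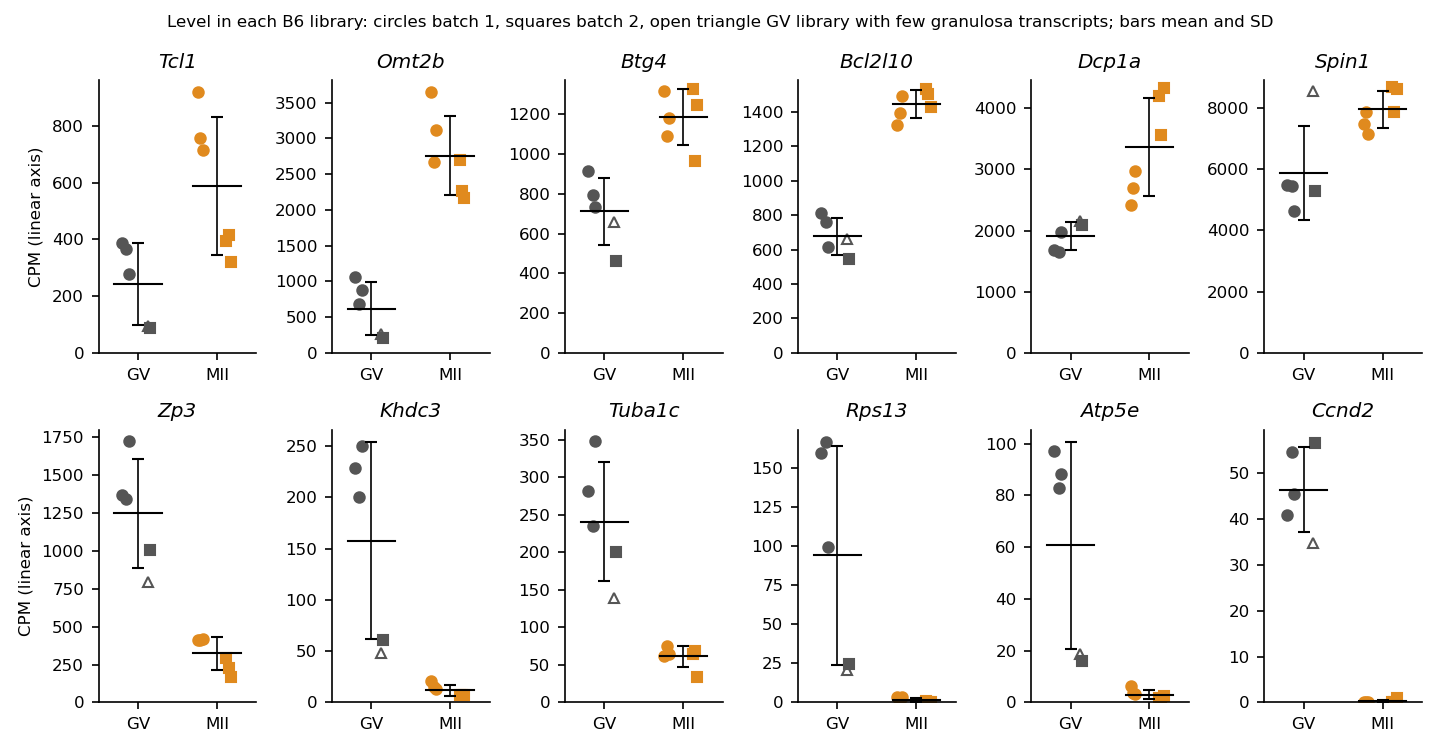
CPM of 12 genes (linear axes from 0) in the 5 GV and 6 MII libraries of B6, with batch 1 as circles, batch 2 as squares and the low-granulosa GV library as an open triangle; lines and bars are the mean and SD. Bcl2l10 and Dcp1a are higher in every MII library, Spin1 overlaps through the open triangle, and Zp3, Khdc3, Rps13 and Ccnd2 are lower in every MII library, the low-granulosa GV library included.

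The machinery that removes poly(A) tails and caps was a group in which more members rose than fell. Of 43 members of deadenylation, decapping and decay, 15 (34.9%) were higher and 5 (11.6%) lower, against 10.3% and 16.4% of all genes tested. Among all 9714 genes of at least 5 CPM, too, more rose (1892) than fell (1301). The median change of the list was 0.18 against -0.06 over all genes. With the granulosa covariate the counts were 7 and 1. Btg4, the meiotic adaptor of the CCR4-NOT deadenylase, was at 912, 791 and 732 CPM in GV of batch 1 and 660 and 460 in batch 2. In MII it was at 1316, 1088 and 1180 in batch 1 and 1328, 966 and 1246 in batch 2. Every MII library lay above every GV library, and the rise was 0.78 ± 0.11 (adjusted p = 3.92e-06). Dcp1a, an activator of the decapping enzyme, went from 1656 to 2158 CPM in GV to 2423 to 4329 in MII, a rise of 0.73 ± 0.10. Pan2, the catalytic subunit of the PAN2-PAN3 deadenylase, rose by 0.63 ± 0.10 from 171 ± 20.2 to 278 ± 58.9 CPM. Both changed without overlap of the libraries. Parn, another poly(A) ribonuclease, fell by 0.71 ± 0.15, from 49.2 to 75.1 CPM to 33.1 to 40.2. Cnot1, the scaffold of CCR4-NOT, was at 545 CPM in GV and 582 in MII and was not called. The terminal uridylyltransferase Tut4 was called lower, but its GV levels ran with the granulosa markers, from 4.59 CPM in the low-granulosa library to 60.5 in the granulosa-rich library of batch 2, and its adjusted p with the covariate was 0.18.

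Regulators of stored mRNA were split. Of 43 translational control genes 10 were higher and 6 lower (3 and 4 with the covariate). The count of higher genes was 5 without the granulosa-rich GV library and 6 without replicate 3 of MII in batch 2. In the main fit 23.3% of the list were higher and 14.0% lower, against 10.3% and 16.4% of all genes tested. Cpeb1, which encodes the protein that reads the CPE, stood at 734, 669 and 697 CPM in GV of batch 1 and 668 and 588 in batch 2. It stood at 270, 287 and 296 in MII of batch 1 and at 309, 251 and 246 in batch 2. The stages did not overlap, and the fall was 1.27 ± 0.10 on the log2 scale (adjusted p = 2.08e-11). Its relative Cpeb4 rose by 0.55 ± 0.10, from 171 to 243 CPM to 249 to 331. Zar1l and Zar1, which encode zinc-finger proteins that bind maternal mRNA, fell by 1.11 ± 0.14 and 0.63 ± 0.11, and in both every MII library lay below every GV library. Pabpn1, the nuclear poly(A)-binding protein, rose by 0.81 ± 0.16. Pabpc1, the cytoplasmic one of most cell types, was called lower (-1.87 ± 0.28), but the low-granulosa GV library, at 25.5 CPM, lay inside the MII range of 14.7 to 31, and the adjusted p with the covariate was 0.076. The oocyte's Pabpc1l was at 74.4 CPM in GV and 75.6 in MII and was not called. Among 15 writers and readers of m6A, the methyl mark on mRNA adenosines, 1 was higher and 2 were lower (1 and 1 with the covariate), and 3 and 2 without the low-granulosa GV library. Wtap rose by 0.99 ± 0.16 and Mettl14 fell by 0.88 ± 0.15.

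Kinases that drive meiotic divisions and their opponents moved in both directions. Of 33 members of the CDK1, cyclin and MOS list 10 were higher and 5 lower (3 and 4 with the covariate). In the main fit 30.3% of the list were higher and 15.2% lower, against 10.3% and 16.4% of all genes tested. Cks1b, a small subunit of cyclin-dependent kinase complexes, went from 47.9 to 64.3 CPM in GV to 86.3 to 115 in MII without overlap, a rise of 0.83 ± 0.13. Ccnb1, cyclin B1, rose by 0.50 ± 0.10, from 426 ± 87.9 to 583 ± 89.7 CPM, and its adjusted p with the covariate was 0.079. Cdk1 itself fell by 0.86 ± 0.16, from 27.3 to 74.1 CPM to 18.9 to 37.3, with overlap between batches, and Ensa, an inhibitor of the phosphatase PP2A-B55, fell by 1.28 ± 0.24 without overlap. Mos, the kinase behind the arrest at MII, was at 116 CPM in GV and 121 in MII and was not called. Of 21 members of the anaphase-promoting complex (APC/C) and its regulators 4 were higher and 3 lower (1 and 3 with the covariate), and 5 were lower without the granulosa-rich GV library or without replicate 1 of MII in batch 1. In the main fit 19.0% of that list were higher and 14.3% lower. Fbxo43, also called EMI2, which inhibits the complex in the MII arrest, rose by 0.62 ± 0.11, from 135 to 201 CPM to 212 to 344. The small subunits Anapc13 and Anapc11 fell by 1.77 ± 0.35 and 1.66 ± 0.29.

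The cAMP pathway, which holds the GV arrest, had 7 of 15 members higher and 2 lower (3 and 0 with the covariate). Without the granulosa-rich GV library, or without replicate 4 of GV in batch 1, 4 were higher. Gpr3, the receptor that keeps cAMP high in the arrested oocyte, stood at 133, 111 and 124 CPM in GV of batch 1 and 87.8 and 130 in batch 2. In MII it stood at 200, 175 and 192 in batch 1 and 182, 236 and 213 in batch 2. The stages did not overlap and the rise was 0.78 ± 0.13 (adjusted p = 2.37e-05). Prkar2a, a regulatory subunit of protein kinase A, rose by 0.39, and Prkar1a, another, fell by 0.45 on the log2 scale. Prkar1a was not called without replicate 2 or 3 of MII in batch 2, replicate 2 of GV in batch 1 or replicate 2 of MII in batch 1. Rgs2, a regulator of G protein signalling, averaged 848 CPM at both stages.

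**Figure D3:**
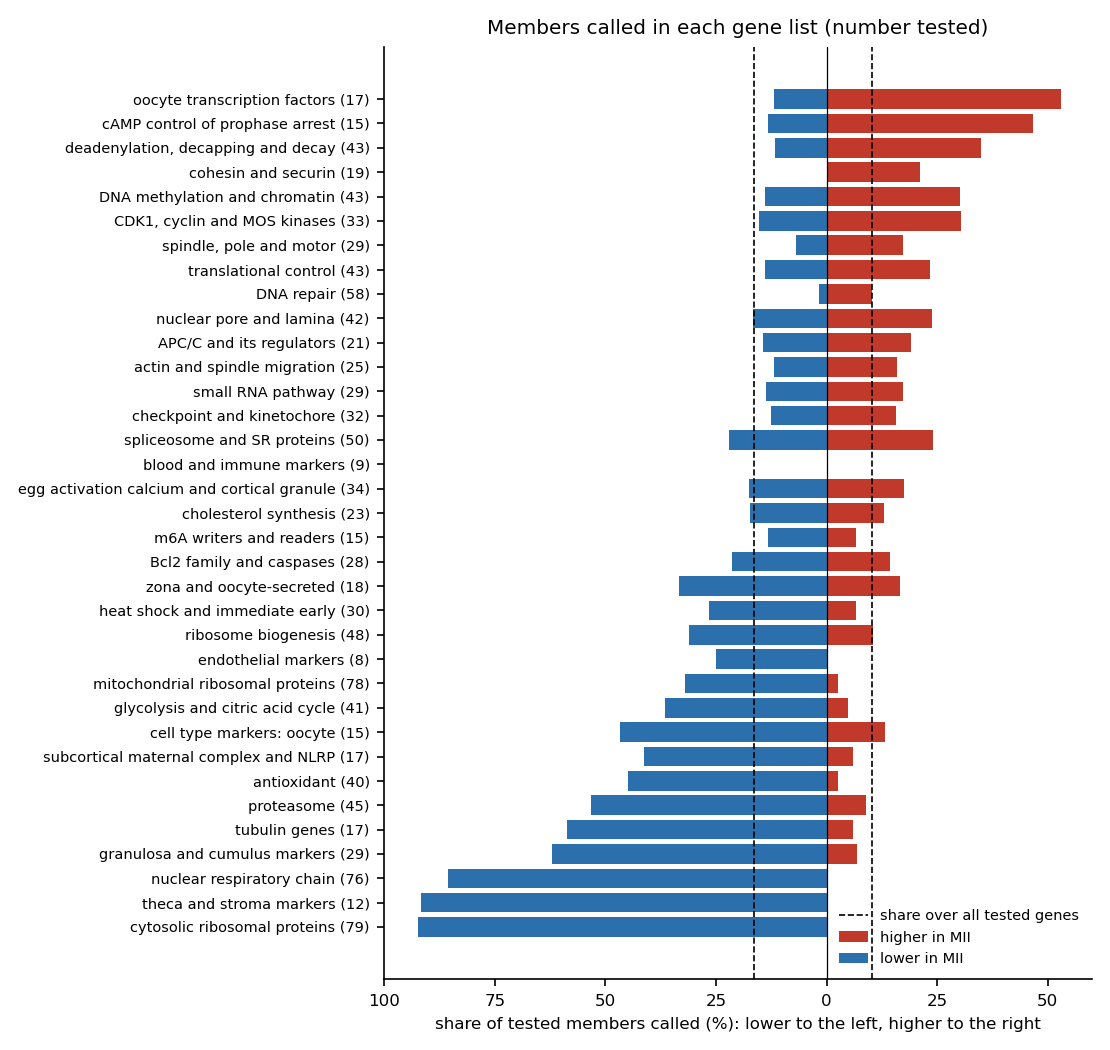
Share of tested members called in each of the 35 gene lists, higher in MII to the right in red and lower to the left in blue, in percent; the number tested is in parentheses and dashed lines are the shares over all tested genes, 10.3% higher and 16.4% lower. Cytosolic ribosomal proteins and the nuclear respiratory chain lie farthest toward lower among the lists of oocyte functions, and oocyte transcription factors and the cAMP pathway toward higher.

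Transcripts of the oocyte coat and of the maternal complexes fell in part. Zp3, which encodes a glycoprotein of the zona pellucida, was at 1367, 1341 and 1722 CPM in GV of batch 1 and 796 and 1006 in batch 2. In MII it was at 413, 411 and 418 in batch 1 and 296, 228 and 171 in batch 2. Every MII library lay below every GV library, the low-granulosa one included, and the fall was 1.91 ± 0.14 on the log2 scale (adjusted p = 2.12e-12). Zp2 fell by 1.77 ± 0.13, from 699 to 791 CPM to 150 to 271, and Oosp2, an oocyte-secreted protein, by 1.24 ± 0.17. Oosp1 moved the other way and rose by 1.02 ± 0.15, from 656 ± 308 to 1180 ± 213 CPM. Gdf9, a growth factor that the oocyte sends to its granulosa cells, fell by 0.28 ± 0.11 (adjusted p = 0.0433) with overlapping libraries, a call that was lost when any 1 of 7 libraries was left out (both GV libraries of batch 2, replicate 5 of GV in batch 1, replicates 1 and 2 of MII in batch 1 and replicates 2 and 3 of MII in batch 2), and Bmp15, its partner, was at 2346 CPM in GV and 2131 in MII and was not called. Over the 18 zona and oocyte-secreted genes 3 were higher and 6 lower, and with the covariate 1 and 7.

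Of 17 genes of the subcortical maternal complex and the NLRP family, 7 were lower and 1, Zbed3, was higher. With the covariate 7 were lower and none was higher, and without the low-granulosa GV library 4 were higher. Khdc3, a component of the complex, fell by 3.45 ± 0.22 on the log2 scale, 10.9-fold. It stood at 229, 200 and 250 CPM in GV of batch 1, at 48.5 and 60.4 in batch 2, at 21.1, 14.7 and 12.6 in MII of batch 1 and at 7.49, 7.36 and 6.83 in batch 2. The stages were apart in each batch and across them. Nlrp14 fell by 1.03 ± 0.11 and Nlrp2 by 0.88 ± 0.11. Ooep, which encodes another component, was at 919 CPM in GV and 992 in MII, and Nlrp9b was at 1311 and 1452, and neither was called.

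Ribosomal protein transcripts showed the broadest fall among the lists of oocyte functions. Of 79 cytosolic ribosomal protein genes 73 were lower and none was higher, with a median change of -2.27, and 64 were lower with the covariate. Summed over the list, the level was 7300 to 8290 CPM in GV of batch 1 and 2140 to 2250 in MII of batch 1. In batch 2 it was 2730 in the low-granulosa GV library and 3170 in the granulosa-rich one, against 1030 to 1210 in MII. The fall was thus present within each batch and at both ends of the granulosa range, while across batches the GV libraries of batch 2 lay not far above the MII libraries of batch 1. Rps13 stood at 160, 166 and 99.3 CPM in GV of batch 1 and 20.7 and 24.3 in batch 2. It stood at 3.36, 1.70 and 3.21 in MII of batch 1 and at 0.746, 0.539 and 0.287 in batch 2. No library overlapped, and the level fell by 5.59 ± 0.33 (adjusted p = 8.48e-14). Rps4x fell by 3.50 ± 0.17. The members were far from uniform. Rpl4 was at 224 CPM in GV and 228 in MII and was not called. Ribosomal protein genes have many processed copies in the genome, and the sources used here do not say how reads with several matches were counted.

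The mitochondrial respiratory chain followed. Of 76 nuclear-encoded subunits and ATP synthase genes 65 were lower and none higher, with a median of -1.69, and 55 were lower with the covariate. Their sum was 3790 to 4000 CPM in GV and 1620 to 1780 in MII of batch 1, and 2020 to 2160 and 894 to 1040 in batch 2. Atp5k, a subunit of ATP synthase, was at 52.3, 56.2 and 59.2 CPM in GV of batch 1 and at 14.7 and 8.26 in batch 2. In MII it was at 3.25, 1.39 and 1.41 in batch 1 and under 0.4 in each library of batch 2. The fall was 5.13 ± 0.36 (adjusted p = 7.46e-13). Atp5e, the epsilon subunit, fell by 3.89 ± 0.29 and the complex I gene Ndufb5 fell by 2.94 ± 0.25, both without overlap. Cytosolic and mitochondrial ribosomes differed in extent. Among 78 mitochondrial ribosomal proteins 25 were lower and 2 higher (15 and 1 with the covariate), with a median of -0.35, though Mrpl33 fell by 3.37 ± 0.39.

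**Figure D4:**
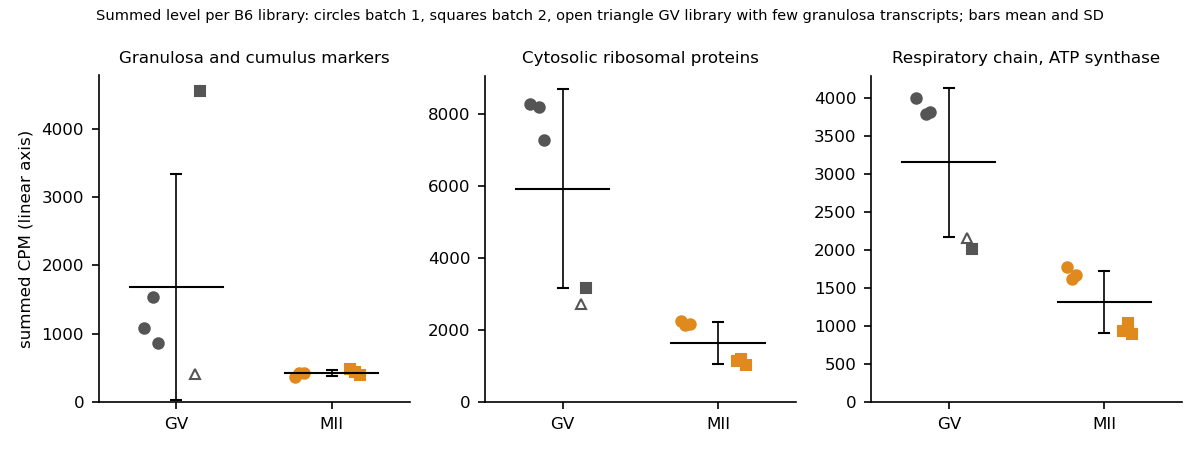
Summed CPM (linear axes from 0) of granulosa and cumulus markers, cytosolic ribosomal proteins and the nuclear respiratory chain in each B6 library, with batch 1 as circles, batch 2 as squares and the low-granulosa GV library as an open triangle; lines and bars are the mean and SD. The open triangle lies with the MII libraries for granulosa markers, at 421 CPM, and above the MII libraries of its own batch for ribosomal proteins, at 2730, and for the respiratory chain, at 2160.

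The proteasome had 24 of 45 members lower and 4 higher (13 and 1 with the covariate, and 2 higher without the granulosa-rich GV library). The core-particle subunit Psmb7 fell by 2.29 ± 0.21, from 64.3 to 138 CPM to 18.4 to 23.8, and Psmb1 fell by 2.64 ± 0.28. Psmd3, a lid subunit of the regulatory particle, rose by 0.95 ± 0.22, from 21.4 ± 8.65 to 40.5 ± 7.71 CPM, with 5 of 6 MII libraries above all GV libraries. In the antioxidant list 18 of 40 members were lower and 1 higher, and with the covariate 4 were lower and 1 higher. Glrx5, a mitochondrial glutaredoxin, fell by 2.23 ± 0.26, and this held with the covariate (adjusted p = 7.2e-06). Gpx1, a glutathione peroxidase, was called at -1.71 ± 0.31, but the low-granulosa GV library, at 2.27 CPM, lay inside the MII range of 1.34 to 7.28, and the adjusted p with the covariate was 0.2. In glycolysis and the citric acid cycle 15 of 41 were lower and 2 higher (5 and 4 with the covariate). Cs, citrate synthase, rose by 0.57 ± 0.09 without overlap, and Mdh2, mitochondrial malate dehydrogenase, fell by 0.74 ± 0.14.

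Tubulin genes were mostly lower. Of 17, 10 were lower and 1 higher (8 and 1 with the covariate), with a median of -1.23, and the low-granulosa GV library was above all MII libraries for 10 of the 17. Tuba1c stood at 282, 235 and 348 CPM in GV of batch 1 and 139 and 201 in batch 2, and at 62, 75.1 and 63.9 in MII of batch 1 and 65.1, 68.2 and 33.5 in batch 2. Its level fell by 1.89 ± 0.16 without overlap. Tuba3a and Tuba3b, near-identical copies whose reads may be divided, fell by 1.81 ± 0.18 and 2.73 ± 0.24. Tubb3 moved against them, with a rise of 1.18 ± 0.20 from 84.2 ± 50.7 to 165 ± 32.7 CPM. Tubb6 was at 512 CPM in GV and 534 in MII and was not called.

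Other parts of the division machinery were mixed. Of 32 checkpoint and kinetochore genes 5 were higher and 4 lower (1 and 4 with the covariate). The higher count was 3 without the granulosa-rich GV library and 8 without replicate 5 of GV in batch 1. In the main fit 15.6% of the list were higher and 12.5% lower, against 10.3% and 16.4% of all genes tested. Spc24, a subunit of the NDC80 complex that ties kinetochores to microtubules, fell by 3.58 ± 0.37, from 7.66 to 22.8 CPM to 0.798 to 2.36, and its partner Spc25 by 0.98 ± 0.19, while Ndc80 was at 114 CPM in GV and 118 in MII and was not called. Birc5, survivin of the chromosomal passenger complex, fell by 1.35 ± 0.12, and Aurkb, a kinase of that complex, rose by 0.53 ± 0.14. Ttk, the checkpoint kinase MPS1, was called higher (0.49 ± 0.10), and its adjusted p with the covariate was 0.21. In the list of spindle, pole and motor genes 5 of 29 were higher and 2 lower (1 and 3 with the covariate), with 2 higher without the granulosa-rich GV library. Tacc3, a spindle-stabilizing protein, fell by 0.81 ± 0.11 and Rcc1, the exchange factor of RAN, rose by 0.93 ± 0.20. Of 19 cohesin and securin genes 4 were higher and none lower. The rises were small, among them Rad21 at 0.39, and with the covariate none was called. Without the granulosa-rich GV library, replicate 1 of MII in batch 2 or replicate 2 of GV in batch 1 the count was 2. Pttg1, securin, was at 408 CPM in GV and 386 in MII. Of 25 actin and spindle migration genes 4 were higher (1 without the granulosa-rich GV library) and 3 lower, against 1 and 2 with the covariate, with Wasf2, an activator of the ARP2/3 complex, up by 0.47 and Arpc3, a subunit of it, down at -0.85.

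Transcription factors of the oocyte had the largest share of higher members among the 35 lists, 9 of 17, with 2 lower (4 and 2 with the covariate). Beside Tcl1, which the list held as an oocyte regulator, Obox5 rose by 0.77 ± 0.13 and Obox2 by 0.58 ± 0.10, both without overlap. They are homeobox genes of a cluster of close copies, so the division of reads among them is uncertain. Nobox was at 377 CPM in GV and 428 in MII and was not called. Of 43 DNA methylation and chromatin genes 13 were higher and 6 lower (6 and 4 with the covariate, and 3 lower without replicate 2 of MII in batch 2). Ctcf, the insulator protein, rose by 0.68 ± 0.11, Kmt2b by 0.67 ± 0.13 and Kmt2d by 0.57 ± 0.11, the last being methyltransferases of histone H3 lysine 4. Dnmt1, the maintenance DNA methyltransferase, fell by 0.84 ± 0.13, from 2704 to 4264 CPM to 1520 to 2403, and no library overlapped. Dppa3, which protects the maternal genome from demethylation, fell by 0.63 ± 0.16, with values in batch 1 of 1552 to 2036 in GV and 1198 to 1709 in MII, and in batch 2 of 1313 and 2002 in GV and 718.5 to 791 in MII. H1f8, the oocyte linker histone, rose by 0.56 ± 0.11.

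Survival genes of the Bcl2 family included a large rise. Bcl2l10 stood at 811, 760 and 612 CPM in GV of batch 1 and 658 and 544 in batch 2. In MII it stood at 1324, 1390 and 1491 in batch 1 and 1534, 1500 and 1426 in batch 2. The stages were well apart, and the rise was 1.10 ± 0.11 (2.14-fold, adjusted p = 1.89e-09, and 2.8e-06 with the covariate). Bcl2l13 rose by 0.64 ± 0.09 and Bcl2l11, the death-promoting BIM, by 0.70 ± 0.14. Mcl1, a survival factor, fell by 0.92 ± 0.29 (adjusted p = 0.0157, 0.54 with the covariate and 0.0757 without the granulosa-rich GV library). Over the list 4 of 28 were higher and 6 lower (3 and 1 with the covariate), and 3 were lower without that library. Of 34 genes for egg activation, calcium and cortical granules, 6 were higher and 6 lower (1 and 3 with the covariate), and 3 were higher without replicate 3 of MII in either batch. In the main fit each direction held 17.6% of that list, against 10.3% higher and 16.4% lower over all genes tested. The calcium channel genes Orai1 and Cacna1h rose by 0.70 ± 0.14 and 0.57 ± 0.13, and Calr, calreticulin, fell by 0.63 ± 0.12. Itpr1, the receptor behind calcium release at fertilization, was at 212 CPM in GV and 230 in MII and was not called.

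In nuclear pore and lamina genes 10 of 42 were higher and 7 lower (4 and 4 with the covariate). The lower count was 4 without replicate 3 of MII in batch 2, replicate 1 of MII in batch 1 or replicate 5 of GV in batch 1. Nup62, a central-channel nucleoporin, rose by 0.75 ± 0.10, from 240.0 to 324 CPM to 369 to 519, Seh1l, of the scaffold, rose by 1.08 ± 0.19, and Ranbp2, of the cytoplasmic filaments, fell by 0.95 ± 0.14, each without overlap. Spliceosome genes had 12 of 50 members higher and 11 lower (3 and 4 with the covariate), and Snrpd2, an Sm core protein, fell by 3.44 ± 0.45. Of 48 ribosome biogenesis genes 5 were higher and 15 lower (1 and 6 with the covariate), 8 higher without the low-granulosa GV library and 8 lower without replicate 1 of MII in batch 1. Of 58 DNA repair genes 6 were higher and 1 was lower, and with the covariate none was higher and 2 were lower. Of 29 small RNA genes 5 were higher (3 without replicate 4 of GV in batch 1) and 4 lower, and with the covariate none was higher and 2 were lower. Drosha, which cuts primary microRNAs, fell by 0.75 ± 0.15 with GV values of 93.1, 94.1 and 122 CPM in batch 1 and 248 and 238 in batch 2, while MII values were 80.3 to 112. Of 30 heat shock and immediate early genes 2 were higher and 8 lower (2 and 5 with the covariate), and Hspe1, a mitochondrial chaperonin, fell by 1.92 ± 0.16 while Hsf1, the heat shock factor, rose by 0.70 ± 0.12. Of 23 cholesterol synthesis genes 3 were higher and 4 lower, and with the covariate 1 was higher and none was lower, against 2 lower without the granulosa-rich GV library. In the main fit the shares higher and lower were 23.8% and 16.7% for nuclear pore and 24.0% and 22.0% for spliceosome genes. They were 10.4% and 31.2% for ribosome biogenesis, 10.3% and 1.7% for DNA repair and 17.2% and 13.8% for small RNA genes. They were 6.7% and 26.7% for heat shock and 13.0% and 17.4% for cholesterol genes. Over all genes tested they were 10.3% and 16.4%, and several of these lists lay near that.

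The largest fitted falls among genes of at least 5 CPM were of several kinds. Lhcgr, the luteinizing hormone receptor of follicle cells, was at 78.6, 77.8 and 73.3 CPM in GV of batch 1 and 248 in the granulosa-rich library of batch 2. It was at 0.189 in the low-granulosa GV library and 0 to 0.519 in MII. The groups overlapped through that library alone. Inhbb, an inhibin subunit, the anion transporter Slc26a7, the glutathione transferase Gstm1, the WNT modulator Sfrp4 and the oxytocin receptor Oxtr were in the same position. Each had a level of 0 to 0.095 CPM in the low-granulosa GV library, within its MII range, and none passed with the covariate. Lhcgr, Inhbb, Inha and Inhba are among the markers that set the covariate and picked that library. For them neither the covariate nor that library is an independent check. Inha, an inhibin subunit, stood at 0.757 CPM in that library and Aldh1a1, a retinal dehydrogenase, at 0.426, against 24.9 to 112 CPM in the other GV libraries. Inhba was at 64.9 CPM in the low-granulosa library, within the 52.8 to 164 of batch 1, and at 0 to 6.13 in MII.

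A few transcripts fell close to zero in MII and were well above it in the low-granulosa GV library too. The granulosa marker Inhba also stood high in that library (see above), and the cell source of these transcripts was not tested. Ccnd2, cyclin D2, was at 40.7, 54.5 and 45.4 CPM in GV of batch 1, at 34.7 in the low-granulosa library and at 56.6 in the granulosa-rich one. The 6 MII libraries lay between 0 and 0.862 CPM, with 41 counts in all, and the fall was 7.61 ± 0.59 (adjusted p = 3.26e-11, and 6e-11 with the covariate). Cplx2, a complexin of regulated secretion, was at 3.51 to 26.2 CPM in GV, with 15.5 in the low-granulosa library, and had 1 count over the 6 MII libraries, so no fold is given. Myocd, a co-activator of serum response factor, went from 5.79 to 19.8 CPM to 0.037 to 0.809, a fall of 5.24 ± 0.51, with 19.3 CPM in the low-granulosa library.

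The 3′ ends and lengths of the called transcripts were compared as a description with no test. Among protein-coding genes of at least 5 CPM with an annotated 3′ end, 507 of 1736 higher genes (29.2%) had a CPE in the last 100 bases, against 157 of 1021 lower genes (15.4%), 1141 of 5781 genes not called (19.7%) and 21.1% of all. Only the transcript strand was searched. Poly(A) tail lengths were not measured, and whether they affect the counts was not tested. Base composition differed too, with a median GC content of the last 100 bases of 33% in higher, 34% in not called and 36% in lower genes. Among genes whose last 100 bases were 30 to 40% GC the shares were 26.4% of higher, 17.4% of not called and 19.1% of lower genes, so that the excess among higher genes was still present and the deficit among lower genes was not. Among genes that kept their call with the granulosa covariate the shares were 36.6% of 437 higher and 15.5% of 536 lower genes. Of the genes that the naming rule picked, 29 of 84 higher (34.5%) and 14 of 85 lower (16.5%) held the element, and those printed at the start are examples. The annotated transcripts of lower genes were shorter. The median coding length was 969 bases in lower, 1542 in not called and 1684 in higher genes, and the median 3′ UTR was 877, 1314 and 1484 bases. Without the ribosomal, respiratory and proteasome lists the lower genes had a median coding length of 1048 bases and 15.7% with a CPE. A 3′ end was annotated for 87.1% of the lower, 95.6% of the not called and 97.8% of the higher genes.

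**Figure D5:**
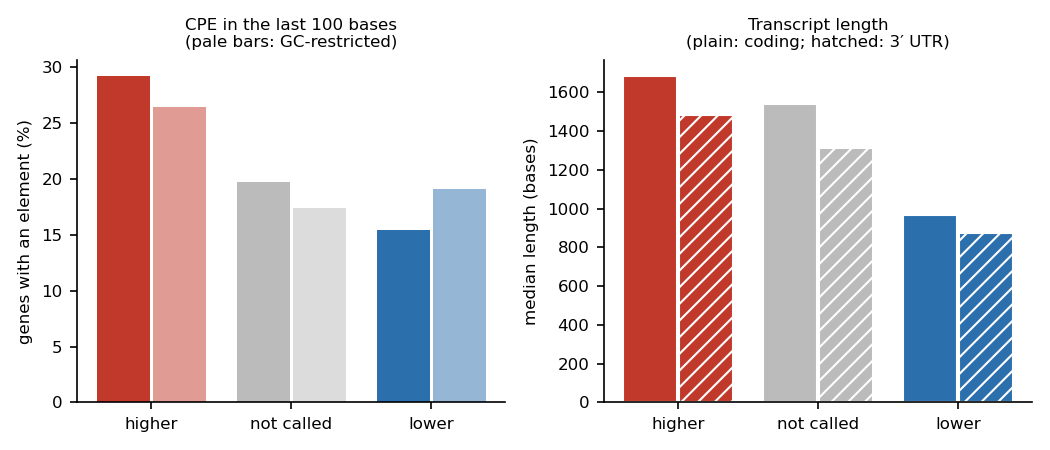
Left, percent of protein-coding genes of at least 5 CPM with a CPE in the last 100 bases among genes called higher, not called and lower in MII, for all such genes (full colour) and for those whose last 100 bases are 30 to 40% GC (pale). Right, median coding length (plain) and median 3′ UTR length (hatched) in bases; higher genes have the element most often, 29.2%, and lower genes the shortest coding sequence, 969 bases.

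Whether the stage change in B6 differed from that in the other females was tested as the B6 change minus the mean of the F1 and D2 changes. It differed for 6 of the 19003 genes (0.0316%), and 1972 genes had an unadjusted p under 0.05. DESeq2 called 69 genes and limma-voom called 0, with 1613 genes at an unadjusted p under 0.05. Leaving out 1 B6 library gave 4 to 14 genes. The count was 4 without the granulosa-rich GV library and also without replicate 3 of MII in either batch. It was 14 without the low-granulosa GV library and 11 without replicate 2 of GV in batch 1. Myocd fell further in B6, with a difference of -2.93 ± 0.57 (adjusted p = 0.0442). Its mean was 12.3 CPM in GV and 0.331 in MII of B6, 20 and 4.09 in F1, and 49.8 and 9.9 in D2. Rapgef4, an exchange factor activated by cAMP, rose in B6 (0.52 ± 0.15) from 24.8 to 35.4 CPM, while its means were 25.8 and 21.7 CPM in F1 and 27.3 and 18.2 in D2. The difference was 0.94 ± 0.18. Sp3, a transcription factor, fell in B6 from 44.6 to 35.1 CPM, with means of 42.2 and 51.3 in F1 and 56.7 and 79.8 in D2, and Prkci, an atypical protein kinase C, differed likewise by -0.69 ± 0.13, though its own change in B6 was not called. Pxdn and Pknox2, named after their values were seen since they averaged under 5 CPM in B6, were at 138 and 41.6 CPM in D2 GV and at 4.38 and 1.86 in B6 GV. Their B6 MII levels were 0.588 and 0.293 CPM, and in the low-granulosa GV library of B6 they stood at 0.757 and 0.331, inside their MII ranges. Both were called with any 1 B6 library left out. Without replicate 5 of GV in batch 1, Sp3 was called neither for the difference (adjusted p = 0.0628) nor for its own fall in B6 (0.0732). Myocd lost its call when any 1 of 7 libraries was left out (adjusted p up to 0.0798), Rapgef4 for 5 libraries (up to 0.0728) and Prkci for 4 (up to 0.0782).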

How the data were processed

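RNA of pooled mouse oocytes was amplified and read as single 50-base reads, per the labels' protocols, after DNase treatment, isothermal amplification and 12 cycles of library PCR. The deposited values are whole-number counts of reads per gene, which the authors made with HISAT2, SAMtools and featureCounts (Subread 1.5.1) on GRCm38.p4, per the submitters' processing notes; those notes also name DESeq2 1.16.1. The strand setting is not given in the sources used here, so overlapping genes on opposite strands cannot be told apart. Reads carry no molecular identifiers, so the level of 3 counts given for genes without a count covers counting error only.

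Of 37444 entries, 3 that name no gene (at most 0.019% of a library) were left out. Gene IDs were matched to RefSeq symbols for 36371 of 37441 genes, and the others held 0.2123% of the counts. No B6 libraries were duplicates of each other, since the closest B6 pair differed by a mean chi-square of 19.87 per gene. The D2 and F1 libraries were not compared in this way. The 32 libraries were fitted together in edgeR 4.0.16 (R 4.3.3) with filterByExpr on the 6 strain and stage groups, TMM scaling, a batch term and robust quasi-likelihood dispersions. The contrast was B6 MII minus B6 GV, and p-values were two-sided and adjusted by Benjamini-Hochberg over all 19003 genes. The script was tested on simulated data with 200 changed genes.

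The members and the 35 gene lists (1161 distinct genes) were chosen with earlier results of these data known. Called genes that averaged 5 CPM or more and changed with the same sign in both batches were named if they had 1 of the 12 largest folds or 6 highest levels in either direction, or 1 of the 3 lowest adjusted p-values of a list. Not every gene so picked is reported here. Genes printed as not called, the marker genes, Pxdn and Pknox2 were named for their roles or after their values were seen. Transcript ends, lengths and bases came from the GENCODE M21 annotation on GRCm38 and its transcript sequences. For each gene 1 transcript was used, the longest protein-coding one with a 3′ UTR, chosen without regard to its level in oocytes. The transcript ends in use in these oocytes were not examined. Promoters and protein sequences were not used here. Alternatives were other scaling (median of ratios, upper quartile), other filters, DESeq2 1.42.0, limma-voom 3.58.1, other batch terms, each batch alone, the 11 B6 libraries alone, a replicate block, the granulosa level as a covariate and each B6 library left out in turn.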

Additional observations from a re-analysis of the deposited data

Results flagged for a closer look

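Single libraries lay far from the rest of their stage in 18 of 366 groups examined (the B6 libraries of a stage, for a gene named in the text or the summed level of a list), and chance flags about 1 in 20 groups. The low-granulosa GV library (batch 2, replicate 1) accounts for 9 of them. It was the highest GV library for Spin1, at 8561 CPM, and for 4 summed levels: 2406 CPM for the anaphase-promoting complex, 4736 for cohesin and securin, 10218 for deadenylation, decapping and decay, and 4853 for DNA repair. It was the lowest GV library for Lhcgr (0.189 CPM), Gstm1 (0.0473 CPM), Sfrp4 (0.0946 CPM) and Aldh1a1 (0.426 CPM). Anapc13 stood at 27.5 CPM in replicate 5 of GV in batch 1. In MII of batch 1, replicate 1 stood at 4432 CPM for summed ribosome biogenesis genes and at 28 CPM for Rcc1, and replicate 3 at 1.33 CPM for Nfatc1, 29.8 for Cxcr4 and 3.57 for Mcl1. In MII of batch 2, replicate 2 stood at 359 CPM for Ttk, and replicate 3 at 33.5 CPM for Tuba1c and 0.0319 for Cplx2, where a single read was counted.

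The stage change in B6 differed from the mean of the F1 and D2 changes, by the test of the difference itself, for 6 genes. The differences on the log2 scale were -2.93 for Myocd, -3.22 for Pxdn, -3.22 for Pknox2, 0.94 for Rapgef4, -0.74 for Sp3 and -0.69 for Prkci.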

How the results depend on the processing

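Direction was stable for the genes named in the text, and the number that passed the test was not. The stable direction was partly set in advance. The naming rule kept only genes with the same sign in both batches, and the alternatives reuse the same libraries. Over all called genes, 1954 of 1957 higher and 3026 of 3108 lower had the same sign in both batches. For the 132 named genes that were called, none of 3148 values under the alternatives changed sign, and 230 no longer passed. These losses were uneven. The replicate block lost 74 of the 128 genes it tested. Of the 132 genes, batch 2 alone lost 49, the granulosa covariate 32 and batch 1 alone 29. No other alternative lost more than 12. The 14 genes given as not called ranged from -0.44 to 0.63 on the log2 scale over the alternatives, where 64 of their 336 values changed sign and 3 passed the test. The replicate number was also tried as a block in the 11 B6 libraries. Libraries with the same number did not deviate together (correlations of -0.13, -0.11 and 0.03). Batch 2 held only 2 GV libraries, whose deviations from their mean mirror each other. These few values cannot decide whether the numbers pair the samples. With that replicate block 713 genes were called, 185 higher and 528 lower (49 and 472 by at least 2-fold), against 2022 lower, 1551 of them by at least 2-fold, in the 11 libraries without it. With the granulosa covariate 1641 genes were called, 560 higher and 1081 lower, 820 of them by at least 2-fold, and 2 genes were called in opposite directions by the fits with and without it. Batch 2 alone called 1402 genes, 663 higher and 739 lower (261 and 627 by at least 2-fold). Without a batch term 960 were higher. With a filter of 1 CPM in 5 B6 libraries 2048 were lower, and the counts of at least 2-fold were 94 higher and 1353 lower. Leaving out 1 B6 library gave 3862 to 5420 calls, with 98 to 226 higher and 1920 to 2748 lower by at least 2-fold. The count of genes whose change differed from that in F1 and D2 was 12 without a filter, 69 in DESeq2, 0 in limma-voom, 3 without a batch term, 10 in batch 1 alone, 0 in batch 2 alone (2110 at an unadjusted p under 0.05), 10 with a batch-by-stage term, 30 with the covariate, and 4 to 14 with 1 library left out. The causes of these shifts were not tested, beyond the smaller number of libraries or genes that some of these fits hold. The median change over all tested genes stayed between -0.09 and 0.02, and depth limits what can be said of genes with a few counts per library.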

Other observations

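Several genes picked by the naming rule belong to groups whose members moved apart. Among small RNA genes, Tnrc6c, a partner of Argonaute proteins, rose by 0.69 ± 0.14 on the log2 scale, from 182.5 to 281.9 CPM over the GV libraries to 301.2 to 463.8 over the MII libraries, with no overlap. Gtsf1, a partner of PIWI proteins, fell by 0.46 ± 0.10. Piwil1, a PIWI protein, was called higher (0.54 ± 0.17), but not without the low-granulosa GV library (adjusted p = 0.0806), replicate 2 of MII in batch 2 (0.0531) or replicate 3 of MII in batch 2 (0.0594). Among splicing genes the SR-type regulators Srsf5, Srsf10 and Tra2b rose by 0.56, 0.39 and 0.43, while Snrpa1, a protein of the U2 particle, fell by 0.88 ± 0.15. Srsf11 was called lower (-0.81 ± 0.21), and its adjusted p was 0.0558 without the granulosa-rich GV library and 0.93 with the covariate. Srsf10 had an adjusted p of 0.23 with the covariate.

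Elobl, a transcript with high CPM, was at 3760, 4200 and 3756 CPM in GV of batch 1 and 4889 and 4646 in batch 2. It was at 3322, 3663 and 3284 in MII of batch 1 and 2149, 2192 and 1318 in batch 2. Every MII library lay below every GV library, and the level fell by 0.72 ± 0.17. Cat, catalase, fell by 3.84 ± 0.54, from 3.09 to 47.9 CPM to 0.144 to 2.54, with 17.9 CPM in the low-granulosa GV library. The proteasome subunit Psma3 fell by 1.80 ± 0.18, the histone deacetylase gene Hdac2 by 0.52 ± 0.12 and the ion channel gene Trpm7 by 0.54 ± 0.14, each without overlap, and Trpm7 did not pass with the covariate (adjusted p = 0.062). Gtf2a1l, a germ-cell homologue of the general transcription factor TFIIA, fell by 0.79 ± 0.17, and the structural subunit Anapc4 of the anaphase-promoting complex by 0.46 ± 0.11, both without overlap. Kif4, a chromosome-bound kinesin, fell by 0.42 ± 0.11. Nup214, a nucleoporin of the cytoplasmic side, rose by 0.58 ± 0.09. Plat, tissue plasminogen activator, rose by 0.42 ± 0.11, Marf1, a regulator of oocyte meiosis, by 0.37 ± 0.08 and the calcium pump gene Atp2a2 by 0.41 ± 0.10, and none of these 3 passed with the covariate (adjusted p = 0.13, 0.18 and 0.2). Serpine2, an inhibitor of that protease held in the list of granulosa and cumulus markers, rose by 0.42 ± 0.12 from 128 to 206 CPM to 155 to 244, against the direction of most of that list.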
